A study of Mus musculus with 20 samples.

Results

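The 34 genes described here make, control or move cholesterol and fatty acids. They were chosen by name for that function, with earlier results of these data known. All 34 were found among the 24421 gene symbols counted in mouse motor neurons. By role they were 5 genes that control the SREBP transcription factors, 7 that take acetyl-CoA to isoprenoids through mevalonate, 11 that take isoprenoids through squalene to cholesterol, 8 that make, desaturate or elongate fatty acids, and 3 that move sterols within or out of the cell. All 34 were abundant enough to be among the 14792 genes tested. The lowest count of any of them in any library was 87, for Abcg1.

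RNA was sequenced from motor neurons grown out of mouse embryonic stem cells. There were 20 libraries in 10 groups of 2. Each of the lines NIL, labelled spinal, and NIP, labelled cranial, was sampled at 0 h, at 12 h and 36 h without treatment, and at 12 h and 36 h with 20 µM cyclopiazonic acid (CPA), an inhibitor of the SERCA calcium pump that empties calcium from the endoplasmic reticulum (ER) and brings on ER stress. The later times are 12 h and 36 h in the sample titles, which set the groups, and 6 h and 12 h in the treatment text. All groups were cultured in the same serum-containing medium with growth factors, and treatment began on day 2 of culture. Whether replicates 1 and 2 came from separate cultures is not stated, so the p-values rest on the spread of these libraries alone, which may be technical. Libraries hold RNA from whole cultures, in which fewer cells of a type and less RNA per cell cannot be told apart.

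Cells adjust sterol synthesis through membrane sensors in the ER. The precursors of SREBP1 and SREBP2, encoded by Srebf1 and Srebf2, sit in the ER membrane bound to the escort protein SCAP. When ER membrane cholesterol is high, the INSIG proteins hold SCAP in the ER. When it is low, SCAP carries the precursors to the Golgi, proteases release the active factors, and these raise transcription of the synthesis enzymes, with SREBP2 acting mainly on cholesterol genes and SREBP1 mainly on fatty acid genes. Neurons need membrane lipid to extend axons and dendrites, and developing neurons make much of their own cholesterol.

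The upstream sequences of 4 members described below are shown for reference, and no result on levels rests on them. Hmgcs1 (HMG-CoA synthase), Mvk (mevalonate kinase) and Mvd (mevalonate decarboxylase) belong to the line difference and, for Hmgcs1 and Mvk, to the response to CPA. Ebp (sterol isomerase) moved the other way after CPA. Each run is the 180 bases before the RefSeq start site on GRCm38.p6, read 5′ to 3′ on the gene's strand. Capitals mark matches, on either strand, of CCAAT, the letters bound by NF-Y, which read as ATTGG from the other strand, and of TCACNCCAC, a core of the sterol regulatory element that SREBPs bind. The Hmgcs1 run is chr13:119690171-119690350 on the plus strand, the Mvk run chr5:114444089-114444268 on the plus strand, the Mvd run chr8:122443423-122443602 on the minus strand and the Ebp run chrX:8193513-8193692 on the minus strand.
Hmgcs1: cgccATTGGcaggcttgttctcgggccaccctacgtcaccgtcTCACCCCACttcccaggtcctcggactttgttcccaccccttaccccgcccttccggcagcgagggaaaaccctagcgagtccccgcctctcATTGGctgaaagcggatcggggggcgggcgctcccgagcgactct
Mvk: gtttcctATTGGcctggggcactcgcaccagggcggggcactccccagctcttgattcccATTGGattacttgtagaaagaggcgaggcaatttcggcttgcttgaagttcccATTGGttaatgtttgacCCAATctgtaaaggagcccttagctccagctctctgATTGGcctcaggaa
Mvd: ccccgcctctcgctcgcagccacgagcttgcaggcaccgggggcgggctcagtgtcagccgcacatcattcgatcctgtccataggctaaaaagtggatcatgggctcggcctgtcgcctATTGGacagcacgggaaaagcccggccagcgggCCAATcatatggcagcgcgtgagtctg
Ebp: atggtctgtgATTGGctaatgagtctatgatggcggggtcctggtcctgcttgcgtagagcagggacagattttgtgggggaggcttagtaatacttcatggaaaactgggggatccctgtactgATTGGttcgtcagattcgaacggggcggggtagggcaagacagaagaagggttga

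The RefSeq promoter table, with 250 bases before and 50 after each start site, held 26 of the 34 members. CCAAT stood in 20 of these 26 (76.9%), against 41.1% of the 27025 genes in the table. Mvk had 5 copies in the run above, Hmgcs1, Mvd and Ebp 2 each. TCACNCCAC was found in 1 of the 26, Hmgcs1, at positions -137 to -129 from the start site, against 1.44% of all genes. TGATGNAA, the letters bound by CEBP-ATF pairs, stood in Insig2 and Idi1, against 4.51% of all genes. The ER stress response element, spelled CCAAT, then 9 bases of any kind, then CCACG, was in 0 of the 26, against 0.137% of all genes. A match describes the letters only.

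Gene reads per library ranged from 7996454 to 30321152, and replicate 1 was the deeper set (median 22.6 M against 13.1 M). The ribosomal precursor gene Rn45s took 5.18% to 38.6% of gene reads. It passed 30% in 2 libraries, untreated NIP 36 h replicate 1 and CPA-treated NIL 36 h replicate 2, and the main results that rest on these are given with and without them. Of the transcription factors that mark the labelled cells, Lhx3, of spinal motor neurons, was 115 to 166 CPM in NIL and 0 to 0.326 CPM in NIP. Phox2a, of cranial motor neurons, was 0.0839 to 3.31 CPM in NIL and 56.9 to 322 CPM in NIP. CPM scale each count to a library of 1 M gene reads, after edgeR's TMM scaling. The NIL libraries also had higher summed levels of marker genes of dividing cells, pluripotent stem cells, mesenchyme and endoderm or endothelium, with some overlap for the last and for pluripotent cells. The summed level of 12 proliferation genes was 251 to 761 CPM in untreated NIL and 78.6 to 222 CPM in untreated NIP, and that of 10 endoderm and endothelium genes 1496 to 10427 and 317 to 1892 CPM. For 10 pluripotency genes the sums were 25.4 to 252 CPM in untreated NIL and 7.63 to 27.7 CPM in untreated NIP, and for 10 mesenchyme genes 11.8 to 65.5 and 2.66 to 4.94 CPM.

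Per kilobase of exon, the highest members in NIL at 0 h were Scd2, a stearoyl-CoA desaturase of brain, at 264 CPM per kb, Acly, which makes cytosolic acetyl-CoA, at 189, and Hmgcs1 at 166. The lowest were Abcg1, a sterol exporter, at 2.61 and Stard4, a sterol carrier, at 4.56 CPM per kb. Every library expressed all enzymes of the route listed here. At 18.3% of its exon bases Fdft1 overlaps Ctsb on the opposite strand, and at 12.1% Tm7sf2 overlaps Vps51 on its own strand. The strand setting of the counting is not given in the sources used here, so some reads of these genes may belong to the partner. All differences below are log2 values with their standard errors (SE) from edgeR's quasi-likelihood test, and a gene passed at an adjusted p under 0.05.

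Untreated NIP cultures had higher levels of the cholesterol route genes than NIL cultures at 0 h and 12 h. At 0 h all 34 members had a higher fitted level in NIP, with a median log2 difference of 0.67 (-0.001 over all genes tested), and 8 passed the test, all higher in NIP. Of all genes tested 12.5% passed, 7.86% with a higher level in NIP and 4.61% with a lower one. At 12 h 33 of 34 were higher, with a median of 0.77 (-0.01 over all genes), and 8 passed, again all higher, against 7.68% of all genes higher and 12.0% in either direction. The members that passed came from the mevalonate steps (Mvk and Mvd at both times, Pmvk at 0 h) and the later sterol steps (Lss, Tm7sf2 and Dhcr7 at both times). Others came from desaturation (Scd1 at both times, Fads1 at 12 h) and from transport (Stard4 at both times).

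The replicate numbers pair libraries across groups, and a fit with the replicate number as a block takes out what a set shares. With it 24 members passed at 0 h and 27 at 12 h, all higher in NIP, against 14.3% and 14.5% of all genes. The 2 lines were compared as cultures, and several marker lists moved with the line. At 0 h 9 of 10 pluripotency genes were lower in NIP (7 past the test with the block and 0 without it), 8 of 8 mesenchyme genes (7 and 4), 12 of 12 proliferation genes (11 and 0) and 10 of 10 endoderm and endothelium genes (1 and 0). The summed astrocyte and neural progenitor markers went the other way at 0 h, at 737 to 904 CPM in NIL and 1266 to 1287 CPM in NIP. Most of that sum was Vim (675 to 816 and 1210 to 1260 CPM). Aldh1l1 of the same list was also higher in NIP (1.94 to 3.73 and 9.30 to 9.71 CPM). Sox2, Fabp7, Slc1a3, Hes5, Pax6 and Nes were lower in NIP, and Gfap and Aqp4 were at most 0.109 CPM. The part of all those cells in the difference was not tested.

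**Figure D1:**
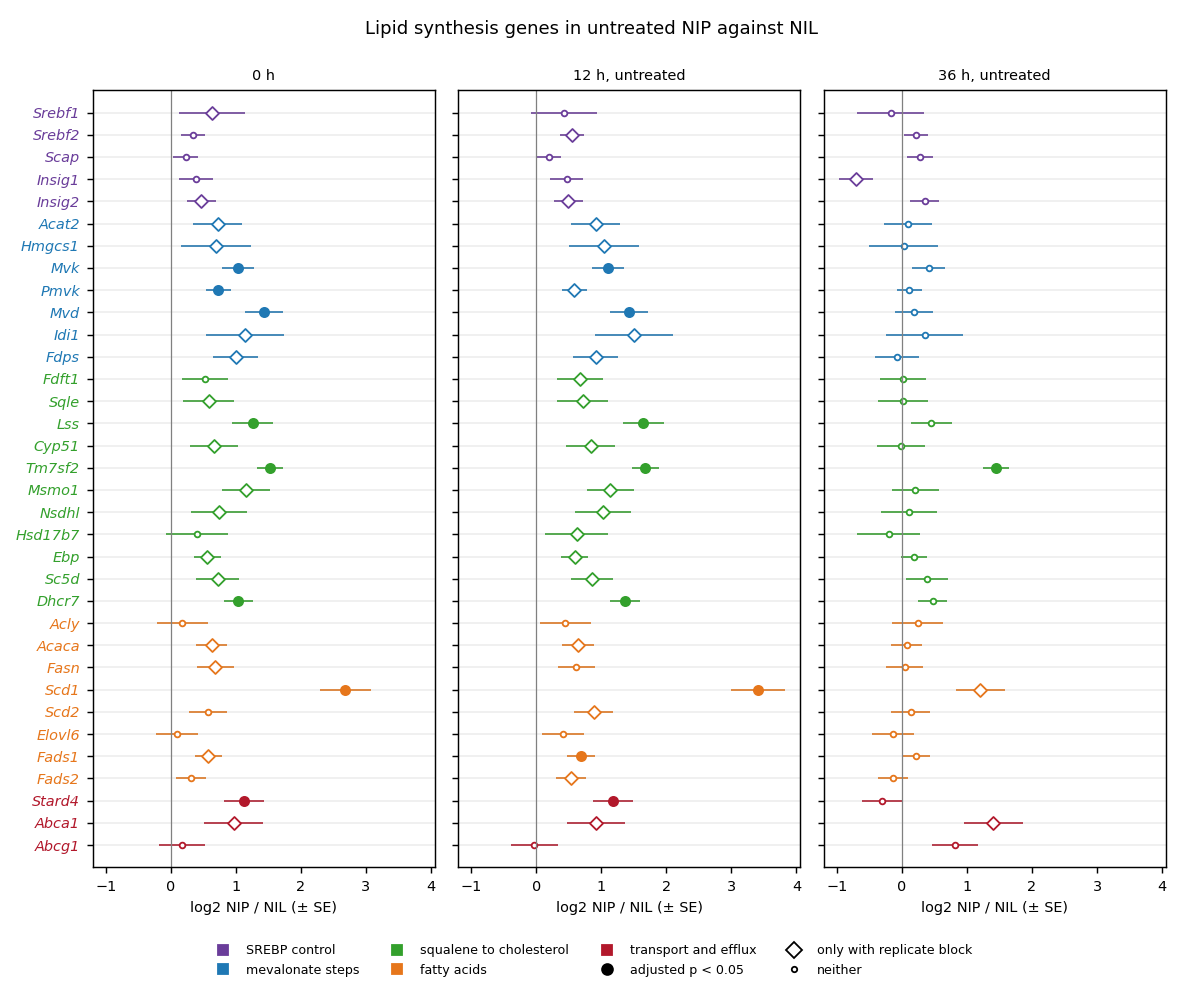
Log2 difference of untreated NIP over NIL for each of the 34 genes (rows, coloured by role) at 0 h, 12 h and 36 h, with the SE as a line. Filled circles passed the test, open diamonds passed only with the replicate block, and small open circles passed neither. Most genes lie right of 0 at 0 h and 12 h and near 0 at 36 h. Tm7sf2, Scd1 and Abca1 stay at the right in all 3.

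Scd1, the stearoyl-CoA desaturase that makes oleate from stearate, showed the largest difference of the 34. It was 39.0 and 45.5 CPM in the 2 NIL libraries at 0 h and 239.6 and 303 CPM in NIP. At 12 h the values were 33.7 and 32.0 in NIL and 346 and 352 in NIP. At these times every NIP library stood several times above every NIL library, and the log2 difference was 2.68 ± 0.40 (adjusted p = 0.000505) at 0 h and 3.41 ± 0.41 (10.6-fold, adjusted p = 0.000109) at 12 h. Its neighbour in the genome, Scd2, was far more abundant in both lines, at 1591 and 1136 CPM in NIL and 2558 and 2469 CPM in NIP at 12 h. The Scd2 difference was 0.88 ± 0.30 and passed only with the block (adjusted p = 0.0754 without it and 0.00617 with it).

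Tm7sf2, the sterol reductase that acts after lanosterol demethylation, differed by a like amount at all 3 times. At 0 h it was 53.7 and 60.8 CPM in NIL and 153 and 177 CPM in NIP, and at 36 h 51.9 and 59.0 and 148 and 153 CPM. All NIP libraries lay above all NIL libraries, treated ones included. The log2 difference was 1.53 ± 0.20 at 0 h, 1.68 ± 0.20 at 12 h and 1.44 ± 0.20 at 36 h (adjusted p = 0.000228, 0.000114 and 0.000406). It was the only member to pass at 36 h, when 11.6% of all genes passed.

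The mevalonate kinases and the decarboxylase followed. Mvd was 41.8 and 43.2 CPM in NIL and 96.6 and 132 CPM in NIP at 0 h, with no overlap and a log2 difference of 1.43 ± 0.29 (adjusted p = 0.00521). Mvk was 40.4 and 39.7 CPM in NIL and 82.8 and 80.8 CPM in NIP, a difference of 1.03 ± 0.25 (adjusted p = 0.0143). For Mvk the replicates of a line were nearly equal and the lines far apart. Pmvk, which adds the next phosphate, was 42.1 and 40.9 and 62.3 and 75.1 CPM (log2 difference 0.73 ± 0.19, adjusted p = 0.0248). At 12 h the differences were 1.42 ± 0.29 for Mvd and 1.10 ± 0.25 for Mvk, both past the test, and 0.58 ± 0.19 for Pmvk, which passed only with the block (adjusted p = 0.0695 and 0.0191).

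Lss, the synthase that closes squalene epoxide into lanosterol, was 95.9 and 70.7 CPM in NIL and 292 and 231 CPM in NIP at 12 h. The lines did not overlap, and the log2 difference was 1.65 ± 0.32 at 12 h (adjusted p = 0.00401) and 1.26 ± 0.32 at 0 h (adjusted p = 0.0185). Dhcr7, which makes cholesterol from 7-dehydrocholesterol, was 119.7 and 114 CPM in NIL and 279 and 319 CPM in NIP at 12 h. Its log2 difference was 1.36 ± 0.23 (adjusted p = 0.00148) at 12 h and 1.04 ± 0.23 (adjusted p = 0.00796) at 0 h. Stard4 was 26.4 and 24.6 CPM in NIL and 62.9 and 48.3 CPM in NIP at 0 h, again with no overlap (log2 difference 1.12 ± 0.31, adjusted p = 0.0306). Fads1, a front-end desaturase of polyunsaturated fatty acids, was 204 and 185 CPM in NIL and 309 and 317 CPM in NIP at 12 h and passed narrowly (log2 difference 0.69 ± 0.21, adjusted p = 0.0488).

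With 1 library left out, 2 to 4 members passed at 0 h and 4 to 6 at 12 h. Tm7sf2 and Scd1 passed at both times, and Dhcr7 at 12 h, whichever library of the comparison was left out. Mvk, Pmvk, Lss and Stard4 at 0 h, and Fads1 and Stard4 at 12 h, lost the call without any 1 of the 4 libraries compared, with adjusted p up to 0.116 for Mvk, 0.21 for Pmvk, 0.141 for Lss and 0.248 for Stard4 at 0 h, and 0.257 and 0.188 for Fads1 and Stard4 at 12 h. Mvd at 0 h lost the call without NIL replicate 1 or NIP replicate 2 (adjusted p up to 0.0581) and Dhcr7 without NIL or NIP replicate 2 (up to 0.102). At 12 h Mvk lost it without either NIL library or NIP replicate 1 (up to 0.0919), Mvd without NIL replicate 1 (0.0739) and Lss without NIL replicate 2 (0.0579). The count at 0 h was 2 without NIP replicate 2, 3 without either NIL library and 4 without NIP replicate 1. The count at 12 h was 4 without either NIL library and 5 without NIP replicate 1.

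Members that passed only with the block filled most of the remaining sterol steps. At 0 h the log2 differences were 1.19 ± 0.28 for Idi1, the isopentenyl isomerase (0.00531 adjusted p with the block), 1.02 ± 0.26 for Fdps, the farnesyl diphosphate synthase, 1.16 ± 0.21 for Msmo1, a C4-methyl oxidase, and 0.78 ± 0.26 for Hmgcs1. Hmgcs1 was 974 and 554 CPM in NIL and 1274 and 1193 CPM in NIP. Both NIP libraries were above both NIL libraries, but the NIL replicates were far apart. Without the block its difference was 0.69 ± 0.54 (adjusted p = 0.472). Other differences passed with the block for Acat2, Sqle, Cyp51, Nsdhl, Sc5d, Ebp, Acaca, Fads1, Fasn, Srebf1, Insig2 and Abca1 at 0 h, from 0.47 ± 0.15 for Insig2 to 1.02 ± 0.26 for Abca1.

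The genes of SREBP control had smaller fitted differences between the lines than the mevalonate genes, a gap that was not tested. Their median log2 difference was 0.385 at 0 h and 0.465 at 12 h, against 0.998 and 1.045 for the 7 mevalonate genes, and 0 of 5 passed in edgeR's test at either time. At an unadjusted p under 0.05 none of the 5 passed at 0 h and 2 at 12 h. DESeq2 called 0 of the 5 at 0 h and 1 at 12 h. With the block 2 of 5 passed at each time, all higher in NIP. Srebf2 was 425 and 382 CPM in NIL and 557 and 621 CPM in NIP at 12 h, a difference of 0.54 ± 0.19 (adjusted p = 0.0796, and 0.0258 with the block). Srebf1 was 19.8 and 38.6 CPM in NIL and 33.3 and 57.0 CPM in NIP at 0 h, where the lines overlapped. Scap, the escort, was 118 and 129 and 142 and 146 CPM, a difference of 0.23 ± 0.20 that passed in neither fit. Insig2, the second retention protein, was 18.7 and 13.7 CPM in NIL and 25.4 and 19.4 CPM in NIP at 0 h. Among the fatty acid genes, Elovl6, an elongase of saturated and monounsaturated chains, was 167 and 122 CPM in NIL and 176 and 132 CPM in NIP at 0 h (log2 difference 0.09 ± 0.32), and Acly 1208 and 789.7 and 1151 and 1102 CPM (0.17 ± 0.39). Fasn, the fatty acid synthase, was 512 and 726 CPM in NIL and 893 and 1091 CPM in NIP, and Acaca, the acetyl-CoA carboxylase that makes its substrate, 159 and 145 and 232 and 239 CPM. For both, each NIP library was above each NIL library at 0 h.

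**Figure D2:**
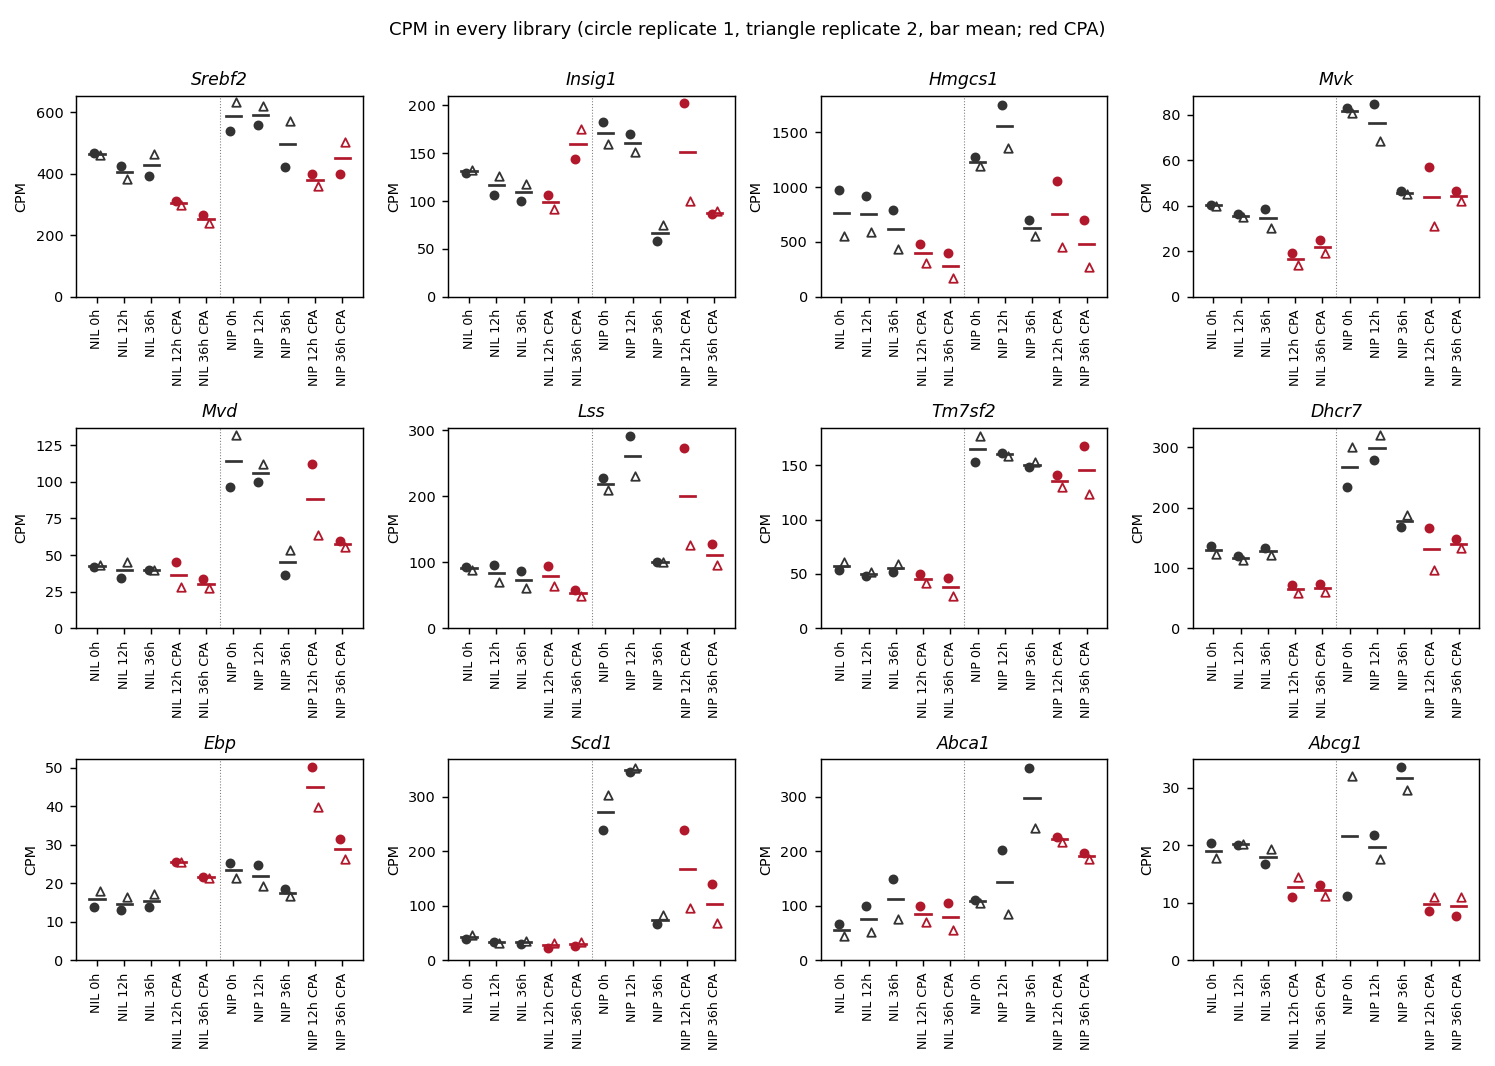
CPM of 12 of the genes in each of the 20 libraries, with time and treatment along each horizontal axis, NIL left and NIP right of the dotted line. Circles are replicate 1, triangles replicate 2, bars the mean, and red marks CPA; Scd1 is 22.2 to 45.5 CPM in all NIL libraries and 65.4 to 352 CPM in NIP, and the NIP values of Mvd, Lss and Insig1 drop at 36 h.

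At 36 h the fitted differences between the lines were smaller. The members' median log2 difference was 0.16 at 36 h, and 26 of 34 were higher in NIP. With the block 4 passed: Tm7sf2, Scd1 (log2 difference 1.21 ± 0.40) and Abca1 (1.45 ± 0.26) higher in NIP and Insig1 (-0.70 ± 0.24) lower, against 28.8% of all genes. Untreated NIP 36 h replicate 1 is the library with the high Rn45s share. Without both high-Rn45s libraries and with the block, 2 members passed (Tm7sf2 and Abca1).

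Untreated NIP cultures held less RNA of most sterol and fatty acid genes at 36 h than at 0 h. Of the 34 members 30 had a lower fitted level at 36 h than at 0 h, with a median log2 change of -0.70 (-0.02 over all genes tested). Insig1, Mvd and Scd1 fell past the test, against 0.602% of all genes falling and 1.29% changing in either direction. With the block 18 fell and 1 rose, against 4.40% and 4.69% of all genes. At 12 h no member had moved in either line in edgeR's test: 0 of 34 passed, with 0 at an unadjusted p under 0.05 and 0 in DESeq2, and the medians were 0.03 in NIP and -0.12 in NIL. The share of all genes that passed was also 0% in NIP and 0% in NIL.

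Insig1, which retains SCAP and is itself a target of SREBPs, was 183 and 159 CPM in NIP at 0 h, 169.6 and 152 CPM at 12 h and 58.3 and 75.3 CPM at 36 h. Both 36 h libraries were well below every earlier untreated NIP library. The log2 change to 36 h was -1.35 ± 0.26 (2.56-fold down, adjusted p = 0.0254). Scd1 went from 239.6 and 303 CPM at 0 h to 65.4 and 83.7 CPM at 36 h, a change of -1.86 ± 0.39 (adjusted p = 0.0335), and still stood above every NIL library. Mvd went from 96.6 and 132 to 36.6 and 53.5 CPM, a change of -1.34 ± 0.29 (adjusted p = 0.0414), and replicate 1 at 36 h then lay within the range of the NIL libraries.

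With the replicate block the falls took in most mevalonate genes and about as many of the later sterol genes. Among the mevalonate genes 6 of 7 fell (Fdps by most, log2 change -1.40 ± 0.26, adjusted p with the block 0.00443) and among the later steps 6 of 11 (Lss -1.10 ± 0.20, Nsdhl -1.10 ± 0.23, Msmo1 -1.03 ± 0.21, Cyp51 -0.98 ± 0.18, Fdft1 -0.93 ± 0.24 and Sqle -0.81 ± 0.18). Fdps, which makes the farnesyl unit from which squalene and ubiquinone both derive, was 338 and 386 CPM at 0 h and 138 and 139 CPM at 36 h. The 2 libraries at 36 h were nearly equal, and less than every other untreated NIP library. Stard4 fell with the block by 1.26 on the log2 scale, from 62.9 and 48.3 to 20.3 and 25.3 CPM. Fads1, Fads2 and Srebf1 were the other falls, at -0.70 ± 0.15, -0.68 ± 0.17 and -0.88 ± 0.21. Tm7sf2 had a change of -0.13 ± 0.20 (adjusted p = 0.839) and Acly one of -0.10 ± 0.39 (adjusted p = 0.946).

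Abca1, the exporter that loads cholesterol onto apolipoproteins, went the other way. In untreated NIP it was 111 and 105 CPM at 0 h, 202 and 85.2 CPM at 12 h and 353 and 243 CPM at 36 h. The 36 h libraries were the highest of the line, and the 12 h libraries lay on either side of the 0 h ones. The log2 change to 36 h passed only with the block (1.42 ± 0.26, adjusted p = 0.00371, and 0.14 without it). In untreated NIL it was 66.3 and 44.2 CPM at 0 h and 149 and 75.6 CPM at 36 h, a change of 1.02 ± 0.45 with an adjusted p of 0.832.

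These NIP values rest in part on the library with the high Rn45s share. Without both high-Rn45s libraries 0 of 34 members passed between 0 h and 36 h in NIP, and 1 with the block (Abca1, rising). The fitted changes were of like size (Insig1 -1.18, Scd1 -1.69, Mvd -1.09, Fdps -1.38, Lss -1.11), and a lone library then stood for the 36 h group. Leaving out any 1 of the 4 libraries at 0 h and 36 h also took the count to 0. The summed level of 10 neuron markers in untreated NIP was 10066 to 10582 CPM at 0 h and 7785 to 10111 CPM at 36 h, which overlap. That of 10 astrocyte and neural progenitor markers was 1266 to 1287 CPM at 0 h and 579.8 to 604 CPM at 36 h, with no overlap. Most of this sum was Vim, at 1210 to 1260 and 544 to 561 CPM. Nes (18.4 to 40.1 and 19.7 to 31.0 CPM) and Aldh1l1 (9.30 to 9.71 and 9.68 to 15.1 CPM) overlapped, and the rest were at most 1.71 CPM. The sum of 12 proliferation genes was 136 to 222 and 78.6 to 141 CPM. The part of these markers' cells in the change was not tested.

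In NIL cultures no member passed over the same time. Between 0 h and 36 h 0 of 34 members passed in edgeR's test, with or without the block, and 0 in DESeq2. At an unadjusted p under 0.05 there was 1, Abca1. Of all genes 0.0270% passed, and 0.940% with the block. The median log2 change was -0.16, with 27 of 34 below 0. Mvd was 41.8 and 43.2 CPM at 0 h and 39.9 and 39.7 CPM at 36 h, and Insig1 129.5 and 132 and 100.1 and 118 CPM. The difference between the lines in this change, a comparison added after the values were seen, passed for 0 members in either fit and in DESeq2, against 0% of all genes without the block and 0.595% with it. The change was more negative in NIP for 30 of 34 members (median -0.59, and -0.02 over all genes), and 6 had an unadjusted p under 0.05. Without the high-Rn45s libraries it was more negative for 29 of 34 (median -0.53).

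**Figure D3:**
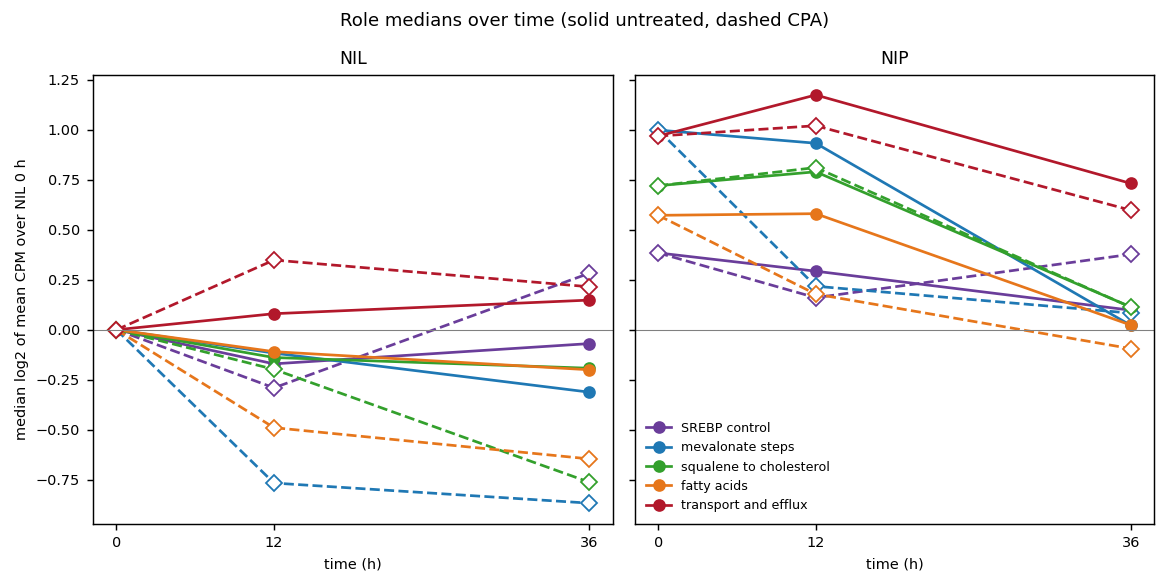
Median over the genes of each role of the log2 ratio of the group's mean CPM to the mean CPM in NIL at 0 h, against time in hours, with untreated groups as solid lines and CPA as dashed lines. The NIP lines start at 0.38 to 1.00 and all but transport and efflux end between 0.02 and 0.11 untreated at 36 h, while the untreated NIL lines stay between -0.31 and 0.15.

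As a check of the treatment, Hspa5, the ER chaperone BiP, rose with CPA in both lines at both times, from 422 to 3825 CPM in NIL and from 362 to 3387 CPM in NIP at 12 h (means of 2 libraries). The lipid genes responded unevenly. The early mevalonate genes Acat2, Hmgcs1 and Mvk and the late sterol genes Nsdhl and Dhcr7 had lower levels with CPA in NIL at both times and in NIP at 12 h. Ebp was higher in all 4 comparisons, and Cyp51, Sc5d and Fads1 had small differences of either sign. At 36 h in NIP the early mevalonate genes had small log2 differences.

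Without the block few calls were made, and the shares of the 34 members called were near those of all genes. In NIL at 12 h Mvk fell, 1 of 34 members, against 2.21% of all genes changed. In NIL at 36 h 0 passed, against 0.980% of all genes, with 9 members at an unadjusted p under 0.05 and 2 falls (Srebf2 and Dhcr7) in DESeq2. In NIP at 12 h Dhcr7 fell and Ebp rose, against 4.71% of all genes. In NIP at 36 h Abcg1 fell, against 2.33%. With the block 5 members fell and 1 rose in NIL at 12 h (all genes 3.77% and 4.16%). In NIL at 36 h 11 fell and 1 rose (all genes 11.0% and 7.25%). In NIP 9 fell and 1 rose at 12 h (all genes 6.54% and 7.54%), and 1 fell and 1 rose at 36 h (all genes 5.15% and 5.10%). The members' median log2 difference was -0.29 and -0.525 in NIL at 12 h and 36 h, and -0.28 and 0.07 in NIP. The NIL median at 36 h was -0.255 without the high-Rn45s libraries, and the NIP median at 36 h was -0.009 with the block, so it has no stable sign. All genes tested had medians of -0.035 and 0.01 in NIL, and -0.01 and 0.03 in NIP. The 4 effects use separate libraries.

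**Figure D4:**
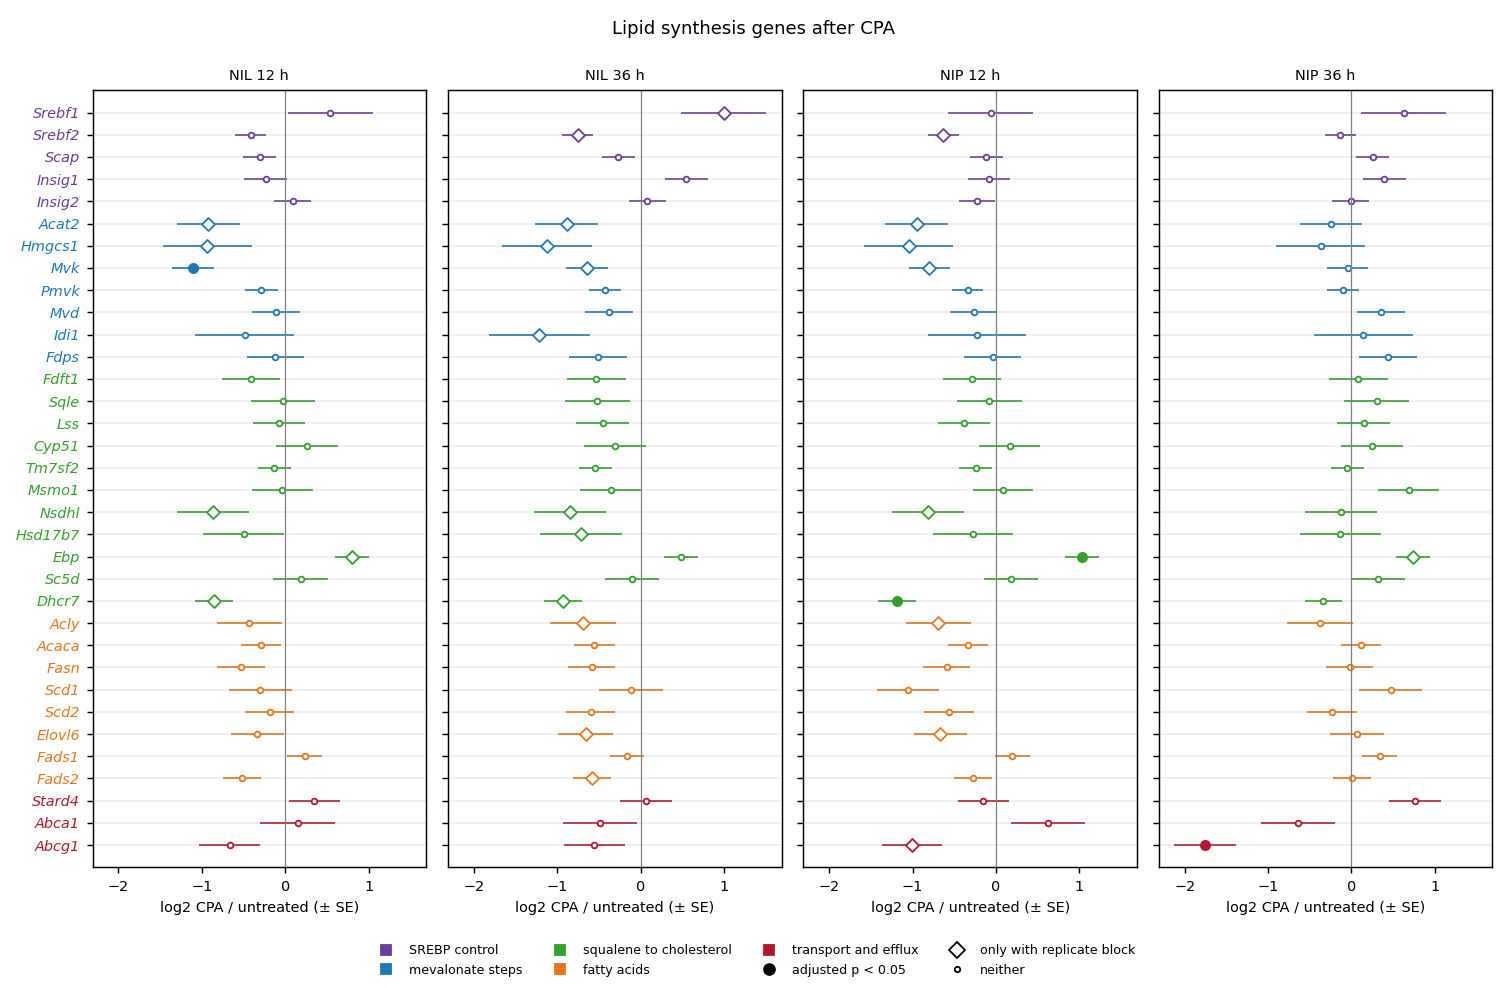
Log2 difference of CPA over untreated for each of the 34 genes (rows, coloured by role) in NIL and NIP at 12 h and 36 h, with the SE as a line. Filled circles passed the test, open diamonds passed only with the replicate block, and small open circles passed neither; Ebp lies right of 0 in all 4 panels, Mvk, Hmgcs1 and Dhcr7 lie left of 0 in the first 3, and Abcg1 lies farthest left at NIP 36 h.

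Mvk was 36.3 and 34.8 CPM in untreated NIL at 12 h and 19.1 and 13.9 CPM with CPA, and in NIP 84.8 and 68.2 and 57.0 and 31.0 CPM. Treated libraries were below untreated ones in both lines. The log2 difference was -1.10 ± 0.25 in NIL (2.15-fold lower, adjusted p = 0.0374) and -0.80 ± 0.25 in NIP (adjusted p = 0.0908, and 0.00517 with the block). The NIL call was lost without any 1 of the 4 libraries, with adjusted p up to 0.356, and without both high-Rn45s libraries, which are not in this comparison but share its estimate of the spread. At 36 h NIL treated libraries were 24.7 and 19.3 CPM against 38.4 and 30.4 CPM untreated (log2 difference with the block -0.65 ± 0.19, adjusted p 0.0268), and NIP ones 46.4 and 42.2 against 46.2 and 45.2 CPM (-0.04 ± 0.25).

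Dhcr7 was 279 and 319 CPM in untreated NIP at 12 h and 166 and 96.3 CPM with CPA. Both treated libraries lay below both untreated ones, and replicate 2 dropped further: the log2 difference was -1.19 ± 0.23 (adjusted p = 0.0101), or -0.75 and -1.73 within replicates 1 and 2. In NIL it was 119.7 and 114 CPM untreated and 71.3 and 58.3 CPM treated at 12 h, and 134 and 122 and 73.5 and 60.3 CPM at 36 h. These NIL differences, -0.85 ± 0.23 and -0.93 ± 0.23, passed only with the block (adjusted p = 0.0159 and 0.00698). The NIP call at 12 h was lost without NIP 12 h untreated replicate 1 or 2 or treated replicate 2 (adjusted p up to 0.0889).

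Ebp, the isomerase that shifts a sterol ring double bond and stands a few steps before Dhcr7, moved against them. It was 13.0 and 16.4 CPM in untreated NIL at 12 h and 25.6 and 25.4 CPM with CPA. In NIP it was 24.6 and 19.2 and 50.3 and 39.7 CPM. Treated libraries were above untreated ones in both lines at both times. The log2 difference was 1.03 ± 0.20 in NIP at 12 h (2.05-fold, adjusted p = 0.0117). It was 0.80 ± 0.21 in NIL at 12 h and 0.73 ± 0.20 in NIP at 36 h, both past the test only with the block (adjusted p = 0.017 and 0.024), and 0.48 ± 0.21 in NIL at 36 h, which passed in neither fit. The NIP call at 12 h was lost without either untreated library or treated replicate 1, with adjusted p up to 0.128. The value at 36 h in NIP did not pass without the high-Rn45s libraries.

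The first enzymes of the route were lower with CPA in 3 of the 4 comparisons, past the test only with the block. Hmgcs1 was 917 and 591 CPM in untreated NIL at 12 h and 481 and 308 CPM treated, and 795 and 434 and 394 and 171 CPM at 36 h. In NIP at 12 h it was 1754 and 1360.0 CPM untreated and 1055 and 449.6 CPM treated. In each of these, both treated libraries were below both untreated ones. The differences with the block were -0.94 ± 0.26, -1.16 ± 0.26 and -1.16 ± 0.26 (adjusted p = 0.0338, 0.00762 and 0.00637). Acat2, the cytosolic thiolase, had -0.96 ± 0.21, -0.89 ± 0.22 and -1.01 ± 0.21, and Nsdhl, a sterol C4 decarboxylase, -0.89 ± 0.23, -0.84 ± 0.23 and -0.92 ± 0.22, all past the test with the block. In NIP at 36 h Hmgcs1 was 699 and 553 CPM untreated and 695 and 273 CPM treated. Its replicates disagreed there (-0.01 and -1.02 on the log2 scale).

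Srebf2, which drives the cholesterol genes, was lower with CPA beside them. It was 392 and 464 CPM in untreated NIL at 36 h and 267 and 239.8 CPM treated, and in NIP at 12 h 557 and 621 and 399 and 360.2 CPM. Treated and untreated libraries did not overlap, and both differences passed only with the block (-0.75 ± 0.17, adjusted p = 0.00834, and -0.63 ± 0.17, adjusted p = 0.0205). Srebf1 had the opposite sign in NIL at 36 h, at 19.6 and 36.1 CPM untreated and 35.1 and 75.6 CPM treated. The groups overlapped, since replicate 2 was higher than replicate 1 in both, and the difference passed only with the block (0.96 ± 0.21, adjusted p = 0.00599). Without the high-Rn45s libraries and without the block the Srebf1 difference was 0.37. That fit sets treated replicate 1 alone against both untreated libraries and does not use the pairing of replicates. Insig1 in NIL at 36 h was 100.1 and 118 CPM untreated and 144 and 175 CPM treated, a difference of 0.55 ± 0.26 that passed in neither fit (adjusted p = 0.3 and 0.124).

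Idi1, Hsd17b7, Acly, Elovl6 and Fads2 completed the falls of NIL at 36 h with the block, at -1.23 ± 0.29, -0.74 ± 0.21, -0.74 ± 0.23, -0.66 ± 0.19 and -0.60 ± 0.17. Treated NIL 36 h replicate 2 is the other library with a high Rn45s share. Without both high-Rn45s libraries and with the block, 0 members passed in this comparison, and 0 without the block. Within replicate 1 alone, which has no such library in NIL, the log2 differences were -1.01 for Hmgcs1, -1.19 for Idi1, -0.91 for Acat2, -0.86 for Dhcr7 and -0.56 for Srebf2. In NIP at 12 h the block also brought out Acly (-0.71 ± 0.23) and Elovl6 (-0.71 ± 0.19).

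Apart from Nsdhl and Ebp, the enzymes between the 2 ends of the sterol route had smaller differences at 12 h. None of these others passed the test, with or without the block. Cyp51, the lanosterol demethylase, was 177 and 125 CPM in untreated NIL and 213 and 149.5 CPM with CPA, and 277 and 262 and 383 and 219 CPM in NIP. Sqle, the squalene epoxidase, was 199.9 and 140.5 and 206 and 129 CPM in NIL. In NIP the replicates went opposite ways for several of these genes. Within replicates 1 and 2 the log2 differences were 0.47 and -0.26 for Cyp51, 0.21 and -0.48 for Sqle, 0.21 and -1.09 for Idi1, 0.29 and -0.47 for Fdps and 0.17 and -0.81 for Mvd. Scd1 in NIP was 346 and 352 CPM untreated and 239 and 96.5 CPM treated at 12 h, lower in both replicates, but the difference of -1.06 ± 0.38 passed in neither fit (adjusted p = 0.147 and 0.0929).

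Abcg1, which exports sterols to lipoprotein particles, was 7.66 to 14.4 CPM in the CPA libraries and 11.1 to 33.6 CPM in the untreated ones. It was 33.6 and 29.6 CPM in untreated NIP at 36 h and 7.66 and 11.1 CPM with CPA. The groups stood far apart, with a log2 difference of -1.76 ± 0.37 (3.38-fold lower, adjusted p = 0.0249). In NIP at 12 h it was 21.7 and 17.6 and 8.59 and 10.9 CPM (difference with the block -1.03 ± 0.32, adjusted p = 0.046). In NIL the differences were -0.67 ± 0.36 and -0.56 ± 0.36 and passed in neither fit. The NIP 36 h call was lost without any 1 of the 4 libraries (adjusted p up to 0.19) and without the high-Rn45s libraries, and passed with the block in their absence. Abca1 differed by -0.64 ± 0.45 in NIP at 36 h and passed in neither fit.

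The neuron markers moved with CPA too. The summed level of 10 neuron genes was 5741 to 10467 CPM in untreated NIL libraries and 2413 to 5208 CPM in treated ones, and 7785 to 11283 and 5007 to 7380.5 CPM in NIP. The endoderm and endothelium genes summed to 1496 to 10427 CPM in untreated NIL and 2849.7 to 17840.0 CPM in treated NIL. In NIP these sums were 317 to 1892 CPM untreated and 208 to 4495.5 CPM treated. The ranges of these sums overlap in both lines. The part of all these markers' cells in the falls of Hmgcs1, Mvk, Dhcr7 and the rest was not tested.

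No difference in the CPA effect, between lines or between times, passed for any member. In edgeR's test 0 of 34 passed in each of the 4 comparisons, with or without the block, and 0 in DESeq2. The share of all genes that passed was 0% for the lines at 12 h, 0% for the lines at 36 h, 0.00676% for the times in NIL and 0.0135% for the times in NIP. With the block these shares were 0%, 0.128%, 0.108% and 1.09%. At an unadjusted p under 0.05 there were 0, 2, 0 and 3 members. At 36 h the CPA effect was more positive in NIP than in NIL for 29 of 34 members, with a median of 0.59 (0.06 over all genes tested), and in NIP it was more positive at 36 h than at 12 h for 31 of 34, with a median of 0.42 (0.02 over all genes). Without the high-Rn45s libraries these were 27 of 34 with a median of 0.31, and 31 of 34 with a median of 0.30. Both of these use the untreated NIP 36 h libraries, which also enter the line difference at 36 h and the untreated change of NIP, so these comparisons are not independent of each other. For Dhcr7 the NIP effect at 36 h minus that at 12 h was 0.85 ± 0.32 (adjusted p = 0.695) and for Scd1 1.53 ± 0.53 (adjusted p = 0.61).

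Of 58 other genes of lipid metabolism, 7 were higher and 1 lower in NIP at 0 h, with a median log2 difference of 0.21. Of all genes 7.86% were higher and 4.61% lower, so the share of the 58 is near that background. With the block 18 were higher and 4 lower, against 14.3% and 12.1% of all genes. The higher ones without the block included Acsl1, which activates long-chain fatty acids (248 against 47.2 CPM, log2 difference 2.40 ± 0.27), the elongase Elovl7 (2.36 ± 0.22), Mid1ip1, an activator of acetyl-CoA carboxylase (2.29 ± 0.24), malic enzyme Me1 (1.92 ± 0.27) and acetyl-CoA synthetase Acss2 (1.39 ± 0.28). The lipoprotein receptor Vldlr was lower (-1.49 ± 0.46, adjusted p = 0.0498). Among the 8 genes of SREBP processing and retention, 0 passed in edgeR's test at 0 h, 0 at an unadjusted p under 0.05 and 0 in DESeq2, and their median was -0.01. With the block 1 passed, lower in NIP: Mbtps1, a Golgi protease that cleaves SREBPs (-0.46 ± 0.14, adjusted p = 0.0247), named after its values were seen. At 36 h Acsl1, Elovl7 and Mid1ip1 were still higher in NIP (1.51, 2.61 and 1.81), as was Agpat3, an acyltransferase of phospholipid synthesis (0.60). These were 4 of 58, against 11.6% of all genes.

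After CPA at 12 h few of the other lipid genes passed, at a share near that of all genes (2.21% in NIL and 4.71% in NIP). In NIL 2 of 58 rose, among them Osbp, a carrier of cholesterol between ER and Golgi (87.1 to 148 CPM, log2 difference 0.76 ± 0.14). In NIP 4 rose and 1 fell. Those that rose included Osbp (0.74 ± 0.14), Erlin1, an ER lipid raft protein (1.04 ± 0.19), and Dgat2, which makes triglyceride (10.8 to 53.0 CPM, 4.91-fold). Acsl1 fell (-0.95 ± 0.25, adjusted p = 0.0496). The medians of the 58 were 0.04 in NIL and 0.07 in NIP at 12 h. At 36 h 0 of 58 passed in edgeR's test in either line, with 9 and 10 at an unadjusted p under 0.05 and 1 and 2 in DESeq2. With the block 6 rose and 2 fell in NIL and 6 rose and 3 fell in NIP at 12 h, and 5 rose and 5 fell in NIL and 6 rose and 1 fell in NIP at 36 h. The shares of all genes that rose and fell with the block were 4.16% and 3.77% in NIL and 7.54% and 6.54% in NIP at 12 h, and 7.25% and 11.0% in NIL and 5.10% and 5.15% in NIP at 36 h. Slc25a1, the citrate carrier of the mitochondrion that feeds Acly, was among the falls with the block at 12 h in NIL and NIP (-0.70 ± 0.16 and -0.67 ± 0.16).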

How the data were processed

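The authors deposited, for each of the 20 libraries, whole-number read counts per gene symbol (24421 symbols and 5 summary lines of unassigned reads). Total RNA was depleted of ribosomal RNA and prepared with the KAPA RNA HyperPrep kit, per the labels' protocols. The submitters' processing notes name Picard, HTSeq 0.6.1p1, TopHat2 2.1.1 and Bowtie2 2.3.2. The build they name is mm10 (GRCm38). Strand setting and annotation release are not given in the sources used here. The summary lines stayed out of library sizes. They held reads with several alignments (18.2% to 52.6% of reads), outside genes (7.77% to 18.7%) and ambiguous (0.156% to 0.458%), so genes with close paralogs or overlaps can be undercounted. Per library, 7996454 to 30321152 reads fell in genes (median 19.8 M).

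Counts were analysed as deposited in R 4.3.3 with edgeR 4.0.16: filterByExpr by group (14792 genes kept), TMM factors, 1 robust quasi-likelihood model of all 20 libraries with a mean per group (10 residual degrees of freedom, biological coefficient of variation 27.5%), and Benjamini-Hochberg adjustment over all genes within a comparison, threshold 0.05. The SE is the absolute log2 value over the square root of F. No 2 replicates were alike within counting noise (chi-square per degree of freedom 30.1 to 316). Replicate numbers come from the titles. The deviations of replicate 1 from 2 correlated across genes in all 45 pairs of groups (r 0.22 to 0.73, median 0.45), so the numbers pair libraries, and a fit with the number as a block (9 residual degrees of freedom, 15.7%) is given beside results it changed.

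All 34 members are named, with roles, and those that passed with or without the block are described in full, up to 4 a role and by smallest p first, with others added after their values were seen. The members, the lists of 58 other lipid genes and of cell type markers, and the alternatives were chosen with earlier results of these data known. Alternatives were the block, DESeq2 1.42.0, RLE factors, no low-count filter, Rn45s removed, both high-Rn45s libraries left out, and each library left out in turn. The script was tested on simulated data. Not every gene counted among the other lipid genes is reported here by name. Exon lengths and overlaps come from GENCODE M21 and promoters from RefSeq, both on GRCm38.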

Additional observations from a re-analysis of the deposited data

How the results depend on the processing

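The 104 single-member values recomputed were those that passed with or without the block, so a change of direction was unlikely from the start. None changed direction under the alternatives run. The members' median for CPA in NIP at 36 h did, from 0.073 to -0.009 with the block and -0.123 with the block and without both high-Rn45s libraries. With the replicate block, which uses the pairing of the replicate numbers, the number of members past the test was 6 and 12 for CPA in NIL at 12 h and 36 h (1 and 0 without it), 10 and 2 for CPA in NIP (2 and 1), 24, 27 and 4 for the line difference at 0 h, 12 h and 36 h (8, 8 and 1), and 19 for the change of untreated NIP from 0 h to 36 h (3). It stayed at 0 for the other comparisons. With the block and without both high-Rn45s libraries, an alternative chosen after seeing the data, these counts were 6, 0, 9, 1, 23, 26, 2 and 1 in the same order. DESeq2 gave 3, 2, 4 and 2 for the 4 CPA comparisons, 3 for the line difference at 36 h and 9 for untreated NIP. Without both high-Rn45s libraries and with no block, the count was 0 for CPA in NIL at 12 h, for CPA in NIP at 36 h and for untreated NIP. With Rn45s removed it was 2 for CPA in NIL at 12 h.

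Leaving out 1 library of the comparison gave 0 for CPA in NIL at 12 h, 0 to 1 in NIL at 36 h, 0 to 3 in NIP at 12 h, 0 in NIP at 36 h, 2 to 4 for the line difference at 0 h, 4 to 6 at 12 h, 1 at 36 h, and 0 for untreated NIP and each remaining comparison. A lone library is then assumed to vary like the other groups. The single-member values tested this way were the 104 that passed with or without the block. Of these, 80 passed only with it and had no call to lose. The other 24 bore all 59 losses, counted over every library left out in turn. In 356 cases a value kept its side of the threshold, most of them values that had not passed, and 1 gained the call. RLE factors moved 1 of the 104 across the threshold and the absence of a low-count filter 1.

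With 2 libraries a group and a coefficient of variation of 27.5%, a difference near 1 on the log2 scale often missed the threshold, so a member that did not pass is not shown to be alike in the groups. The lowest count of a member in a library was 87, and the share of counting noise in this limit was not tested.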
